A study of Mus musculus with 383 samples.

Results

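The genes described here are 8 genes known from the patterning and identity of the thalamus: Shox2, Lhx9, Irx3, Tcf7l2, Irx2, Gbx2, Lef1 and Synpo2. They were chosen by name, with earlier results of these data known. Every probe set annotated to 1 of these symbols was taken, which gave 19 of 45037 probe sets. A probe set is a group of short oligonucleotides on the array that reads 1 transcript. The array annotation covers 18193 genes with a probe set of a single symbol, and all 8 members are among them. The study measured total RNA of 4 brain regions with Affymetrix microarrays in male F2 mice of a cross between C57BL/6J and 129S1/SvImJ, an intercross in which every animal carries its own mixture of the parental alleles. The mice numbered 117, and there was 1 array per region and mouse: 98 of cortex, 83 of hippocampus, 94 of hypothalamus, and thalamus from all but 9 of the mice. Every mouse went through the same course, so no region or mouse served as an untreated control: behavioural tests from 7 weeks of age, electrodes for sleep recording at 10 weeks, recordings before and after 6 h kept awake and again after 1 h in a restrainer, then 2 weeks undisturbed, and death at 16 weeks, 6 to 7 h after lights on. The mouse is the replicate throughout.

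The thalamus relays sensory and motor signals to the cortex, and its nuclei arise from a band of the embryonic diencephalon. Iroquois homeobox genes such as Irx3 mark the tissue that can become thalamus, Gbx2 and Lhx9 are homeobox genes switched on as thalamic neurons form, and Tcf7l2 and Lef1 encode DNA-binding partners of beta-catenin, through which Wnt signals act on genes. Tcf7l2 stays on in thalamic neurons of the adult mouse. Shox2 encodes a homeodomain protein of a subset of thalamic neurons. Synpo2 differs from the other 7: it encodes synaptopodin 2, a protein that binds actin, and is not a transcription factor.

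The labelled regions were checked against marker genes, 1 main probe set per gene. Of 8 measured cortex markers, 7 were higher in cortex by at least 1 on the log2 scale, led by Tbr1 and Neurod6, and of 25 other thalamus markers 13 were higher in thalamus and 1, Lhx2, was higher in cortex. The thalamus arrays also carried markers of neighbouring tissue: 14 of 19 pretectum and midbrain markers and 6 of 9 habenula markers were higher there than in cortex. The dopamine transporter gene Slc6a3 was higher by 5.49, the serotonin synthesis gene Tph2 by 5.39 and the habenula gene Pou4f1 by 3.23. Of 14 hypothalamus markers, 4 were higher in thalamus, led by Pmch with 3.72, and 1, Crh, was higher in cortex. The cortex arrays were higher in 6 of 7 striatum markers and in 7 of 15 markers of the prethalamus and its derivatives, with the dopamine receptor gene Drd1 at 4.75 and Dlx1 at 3.21. On the prethalamic list Pvalb went the other way and was higher in thalamus by 1.55. Median RNA integrity numbers (RIN, from 1 for degraded to higher values for intact RNA) were 7.7 in cortex, 7.9 in thalamus, 8.9 in hippocampus and 9.2 in hypothalamus. In bulk tissue, fewer cells of a type and less RNA per cell cannot be told apart.

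Because several of the genes varied together, the 250 bases before the annotated start are shown for 4 of them: Shox2, which ranked first of all probe sets by its difference toward thalamus, Gbx2 and Synpo2, which followed each other closely across thalamus arrays, and Irx2, which ran against Shox2 and Synpo2. They are RefSeq sequences of the build GRCm38.p6, written 5′ to 3′ on the strand of the gene. Capitals mark CTTTG or its reverse complement CAAAG, the core letters of sites bound by the Tcf and Lef proteins, searched on both strands. Shox2 lies at chr3:66981772-66982021 on the minus strand, Gbx2 at chr1:89931177-89931426 on the minus strand, Synpo2 at chr3:123236150-123236399 on the minus strand and Irx2 at chr13:72628570-72628819 on the plus strand.
Shox2: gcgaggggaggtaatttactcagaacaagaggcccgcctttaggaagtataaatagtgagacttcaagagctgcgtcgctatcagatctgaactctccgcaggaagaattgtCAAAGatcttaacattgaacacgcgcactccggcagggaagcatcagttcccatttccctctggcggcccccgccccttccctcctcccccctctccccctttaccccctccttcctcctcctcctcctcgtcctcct
Gbx2: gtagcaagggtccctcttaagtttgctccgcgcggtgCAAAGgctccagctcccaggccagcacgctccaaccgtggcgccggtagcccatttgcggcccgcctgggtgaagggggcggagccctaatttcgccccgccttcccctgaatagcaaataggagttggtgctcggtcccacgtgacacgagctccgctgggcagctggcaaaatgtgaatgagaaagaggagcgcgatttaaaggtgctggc
Synpo2: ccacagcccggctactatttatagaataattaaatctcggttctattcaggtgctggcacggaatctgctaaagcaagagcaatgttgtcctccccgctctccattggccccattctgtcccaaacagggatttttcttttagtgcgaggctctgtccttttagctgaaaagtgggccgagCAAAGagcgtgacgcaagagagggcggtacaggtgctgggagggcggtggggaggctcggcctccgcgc
Irx2: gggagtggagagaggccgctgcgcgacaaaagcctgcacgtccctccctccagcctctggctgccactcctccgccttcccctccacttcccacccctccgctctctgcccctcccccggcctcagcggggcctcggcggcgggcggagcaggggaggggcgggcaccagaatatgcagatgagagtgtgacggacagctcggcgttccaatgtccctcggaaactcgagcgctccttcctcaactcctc

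The core began 138 bases before the start in Shox2, 213 bases before it in Gbx2 and 69 bases before it in Synpo2, and the letters were not in this window of Irx2. Over all 8 members, the first listed promoter of 6 held the core, with Irx2 and Irx3 as the exceptions, and 48.6% of all 32851 promoters did in the same window of 250 bases. Of the 12 promoters listed for the 8 genes, 10 held it. Lef1 has 4 of these, and promoters 1 and 2 of Lef1 overlap and share a site, 161 and 187 bases before their starts. The homeodomain core TAATTA, which reads the same on both strands, was in Synpo2 only among the members, 224 bases before the start and so apart from the other motif, and in 4.84% of all promoters. The CG dinucleotide occurred 11 times in the window of Shox2, 18 times in Gbx2, 13 times in Synpo2 and 19 times in Irx2.

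All 8 members were higher in thalamus than in cortex. Shox2 led with a difference of 7.34 on the log2 scale, followed by Lhx9 and Irx3 with 4.83 and 4.72, and Lef1 had the smallest difference with 1.83. The test was limma's linear model over all probe sets, with p-values adjusted by Benjamini and Hochberg, and a gene was called where adjusted p was under 0.05 and the difference at least 1. Of 45037 probe sets, 1444 (3.21%) were called higher in thalamus, and so were 8 of 8 members by their main probe set. The main probe set is the one with the highest mean over both regions, which favours a probe set high in thalamus. The members were listed as thalamic genes with earlier results of these data known, so their count is a description and no test. Of the 19 probe sets of the members, 17 were called. Differences are relative to a median of -0.15 (cortex minus thalamus) over all probe sets, which quantile normalization moved to -0.02, and under it the 8 members were called in the same direction.

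Shox2 stood between 2.99 and 5.42 in cortex with a median of 3.56 (97 arrays, 1 value missing), and between 10.6 and 11.5 in thalamus with a median of 11.0 (no value missing). The lowest thalamus array lay far above the highest cortex array. The means were 3.66 ± 0.40 (SD, n = 97) in cortex and 11.0 ± 0.18 (SD over all thalamus arrays) in thalamus, a difference of 7.34 ± 0.04 (SE) with adjusted p = 1.51e-225 by limma, and the thalamus was higher in 90 of 90 mice with both values. Its other probe set differed by 4.98 ± 0.03. The values hold no measure of background, so whether cortex holds any Shox2 transcript at such a level could not be read from them.

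Lhx9, a LIM-homeodomain gene, lay between 3.42 and 4.57 in cortex (median 3.87) and between 8.25 and 9.22 in thalamus (median 8.72). The groups did not overlap, and the difference was 4.83 ± 0.03 (SE, adjusted p = 2.69e-219 by limma). Its other 3 probe sets differed by 4.51, 4.36 and 1.74, so the size depended on the probe set while the direction did not. Gbx2 lay between 3.70 and 5.31 in cortex (median 4.45) and between 5.46 and 7.53 in thalamus (median 6.85). These groups came closest to each other, with no overlap, and differed by 2.39 ± 0.05 (SE, adjusted p = 5.32e-116 by limma).

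The Iroquois genes Irx3 and Irx2 differed by 4.72 ± 0.04 and 3.57 ± 0.03 (SE). Irx3 ranged from 3.90 to 5.17 in cortex (median 4.37) and from 8.14 to 9.71 in thalamus (median 9.16). Irx2 ranged from 4.28 to 5.57 in cortex (median 4.97) and from 7.99 to 8.96 in thalamus (median 8.54). No cortex array reached the lowest thalamus array for either gene. Of the 6 Iroquois genes measured, 4 were called higher in thalamus: beside these members, Irx5 by 3.31 ± 0.03 and Irx1 by 2.03 ± 0.03 (SE). Irx4 and Irx6 were not called.

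Tcf7l2 lay between 5.59 and 7.28 in cortex (median 6.53) and between 10.5 and 11.5 in thalamus (median 11.0), with a difference of 4.47 ± 0.04 (SE, adjusted p = 6.09e-197 by limma). Its other probe sets differed by 5.14, 4.32 and 3.44, and all 4 were called. Its relative Lef1 lay between 6.05 and 7.16 in cortex (median 6.59) and between 7.91 and 9.01 in thalamus (median 8.43, 107 arrays), and differed by 1.83 ± 0.03 (SE) with its other probe set at 2.21. The groups did not overlap for either gene. Among 40 other measured genes of the Wnt and Tcf pathway, 6 were called higher in thalamus and 2 higher in cortex, against 4 and 2 after quantile normalization. Over all 45037 probe sets, 1444 (3.21%) were called higher in thalamus and 1036 higher in cortex. The median of the list (cortex minus thalamus) was -0.32, against -0.15 over all probe sets. The R-spondin gene Rspo2 and Dkk3 were higher in cortex by 3.07 and 2.16. The secreted inhibitor Sfrp2 and the R-spondin receptor gene Lgr5 were higher in thalamus by 1.67 and 1.61.

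Synpo2 lay between 5.27 and 6.97 in cortex (median 6.11) and between 7.51 and 10.0 in thalamus (median 9.06), and differed by 2.97 ± 0.05 (SE, adjusted p = 1.76e-126 by limma). Its 4 probe sets disagreed: another differed by 2.40 and was called, while the remaining pair differed by 0.48 and 0.20, under the minimum. For these 2 probe sets the thalamus was higher in 75 and 58 of 91 mice. For every main probe set of the 8 members, the thalamus was higher in all 90 or 91 mice with both values. How many of all probe sets were as fully separated, or higher in every mouse, was not counted. The separations given here therefore describe the members only. With no minimum difference, 27527 of 45037 probe sets were called higher in thalamus.

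**Figure D1:**
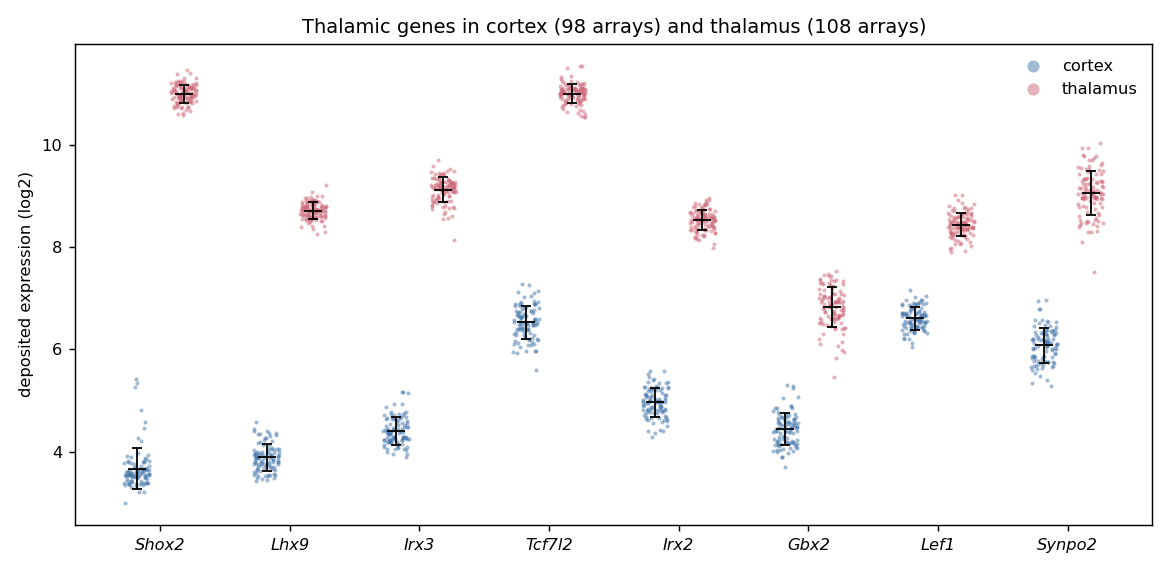
Deposited log2 expression of the main probe set of each of the 8 members, 1 point per array, in cortex (blue) and thalamus (red), with the mean and SD as black marks. For each gene all thalamus arrays lie above all cortex arrays, with the widest separation for Shox2 and the narrowest for Gbx2; levels are not to be compared between genes, since each probe set has its own response.

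Across thalamus arrays most members varied little. The SD was 0.18 for Shox2, 0.17 for Lhx9, 0.19 for Tcf7l2, 0.20 for Irx2, 0.23 for Lef1 and 0.24 for Irx3, against a median of 0.21 over all probe sets. Synpo2 with 0.43 and Gbx2 with 0.39 were the exceptions, at the 97.1 and 94.1 percentiles of all SDs. On the hybridization date with most thalamus arrays (86) these were 0.41 and 0.37. In cortex, Shox2 had an SD of 0.40 at the 95.6 percentile by its main probe set, whose highest array stood 2.42 above its lowest. Its other probe set had an SD of 0.21 there, at the 48.2 percentile.

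The spread was widest for Shox2 outside thalamus and cortex. Deposited values of hippocampus and hypothalamus were not on the usual log2 scale: probe set means ran from -12.56 to 29.3 in hippocampus and from -6.30 to 18.1 in hypothalamus, against 2.96 to 14.6 in cortex. Levels in these regions were therefore not compared with the others, and their spreads may not share a scale with them. In hypothalamus Shox2 ranged from 5.04 to 11.5 around a median of 8.28, with an SD of 1.41 that was at the 99.9 percentile of all probe sets there, where the median SD was 0.23. Of 94 arrays, 12 lay over 2 units above the median and 6 over 2 units below it. Gbx2 ranged from 4.64 to 8.74 (median 6.77, SD 0.84, percentile 99.4), and Lhx9 from 8.31 to 11.0 (median 9.60, SD 0.47, percentile 95.6). The other members had hypothalamus SDs from 0.22 for Lef1 to 0.40 for Synpo2.

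In hippocampus Shox2 ranged from 1.26 to 8.51 around a median of 3.32 (82 arrays, SD 1.24, percentile 99.8). The spread was lopsided: 8 arrays lay over 2 units above the median and 1 over 2 units below it, and the highest stood 5.19 above it. Synpo2 followed with an SD of 0.51 (percentile 95.6) and Irx2 with 0.48 (percentile 94.2), both without any array 2 units from the median. Lef1 had an SD of 0.26 in hippocampus, near the median of 0.25 over all probe sets, and Lhx9 one of 0.37. The other Shox2 probe set had an SD of 0.63 in hypothalamus and 0.49 in hippocampus, and followed the main one with r = 0.61 and r = 0.62 there, 0.68 in thalamus and 0.21 in cortex.

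**Figure D2:**
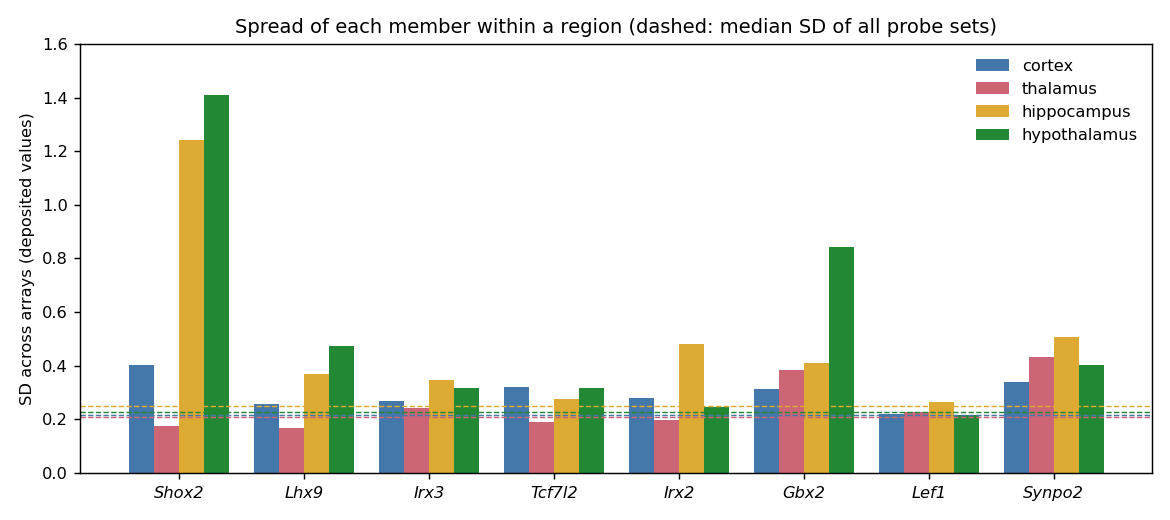
SD of each member across the arrays of a region, as bars in the deposited units, with the median SD of all probe sets of that region as a dashed line of the same colour. Shox2 in hippocampus (1.24) and hypothalamus (1.41) and Gbx2 in hypothalamus (0.84) stand out, while in thalamus Gbx2 (0.39) and Synpo2 (0.43) vary most; hippocampus and hypothalamus values may not be on the scale of the other regions.

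Across the thalamus arrays, 5 members rose and fell together from mouse to mouse by their main probe sets: Shox2, Tcf7l2, Gbx2, Lef1 and Synpo2. All 10 pairs among them were called, 7 of them also with second probe sets, with Pearson r from 0.35 to 0.69 and a median of 0.50. Lhx9 was called with Shox2 and Tcf7l2 and Irx2 was negative with Shox2 and Synpo2, none of which was called with second probe sets, and Irx3 was called with no other member. For each member, all probe sets were fitted on its main probe set with limma, and a pair was called where adjusted p was under 0.05 in both fits. Of 28 pairs, 14 were called, 12 with positive and 2 with negative r. Over the 8 fits, 2.17% of all probe sets were called in either direction.

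The closest pair was Shox2 and Synpo2, with r = 0.69 and rho = 0.65 (adjusted p = 7.49e-14). Without the 2 arrays farthest from the median of Shox2, r was 0.66. Gbx2 and Synpo2 followed with r = 0.68 and rho = 0.67 (adjusted p = 1.07e-13), and Lef1 and Synpo2 with r = 0.56 and rho = 0.61 (adjusted p = 1.19e-07). Synpo2, the gene of the set that encodes no transcription factor, thus had the highest r with Shox2, Gbx2 and Lef1 alike by its main probe set. Across thalamus arrays that probe set had r = 0.73 with the second one, and r = 0.21 and 0.02 with the pair that differed little between cortex and thalamus. By the second probe sets, its r was 0.50 with Shox2, 0.62 with Gbx2 and 0.50 with Lef1, all called.

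Shox2 also varied with Tcf7l2 (r = 0.51, rho = 0.51), Lef1 (r = 0.48, rho = 0.51), Gbx2 (r = 0.46, rho = 0.46) and Lhx9 (r = 0.39, rho = 0.41). The pair of Wnt effectors, Tcf7l2 and Lef1, had the lowest r among the called pairs with positive r, at 0.35 with rho = 0.37 and adjusted p = 0.0151. Lhx9 and Tcf7l2 reached r = 0.45 with rho = 0.40. Irx2 had r = -0.43 and rho = -0.46 with Shox2 (adjusted p = 0.000469), and r = -0.44 and rho = -0.44 with Synpo2 (adjusted p = 0.000202). The Iroquois pair Irx3 and Irx2 had r = 0.28 with a permutation p of 0.00365, which did not pass the adjustment (adjusted p = 0.105).

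Each of the 14 called pairs had a two-sided permutation p for r between 1e-05, the smallest that 100000 permutations can give, and 0.00022, and 20 of 28 pairs were under 0.05 without adjustment. The share of all probe sets under 0.05 without adjustment was not counted. With 5 arrays at each end set aside, no gap between neighbouring arrays exceeded 0.33 SD for any member in thalamus. This looks at 1 gene at a time and cannot show small groups, overlapping groups or groups that differ over several genes. Within the hybridization date with 86 arrays and the date with 20, all 14 pairs kept their sign, with r from -0.46 to 0.70 in the first and from -0.42 to 0.80 in the second. Shox2 and Gbx2 had r = 0.43 on the first and 0.80 on the second, and Tcf7l2 and Lef1 had 0.39 and 0.15. A setting added after seeing the data replaced each member's probe set with its second one where it had several: 7 of the 28 pairs were then called, all among the 14. These were the 6 pairs among Shox2, Gbx2, Lef1 and Synpo2, with r from 0.40 to 0.62, and Tcf7l2 with Lef1 (r = 0.33). Tcf7l2 was no longer called with Shox2 (r = 0.29), Gbx2 (0.25) or Synpo2 (0.29). Both pairs of Lhx9 were lost, with Shox2 (0.19) and with Tcf7l2 (0.29), and so were both of Irx2, with Shox2 (-0.28) and with Synpo2 (-0.24). Second probe sets were taken by their mean over cortex and thalamus arrays. For Lhx9 this was the one that differed least between these regions, by 1.74, against 4.51 and 4.36 for those not tried. It had r = 0.42 with the main one across thalamus arrays. Irx2 kept its probe set, so only its partners changed.

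Cohort and date effects appeared to have been removed from the values before deposit, which can make p-values somewhat small. For RIN in thalamus, limma called 0 of 8 members (0 at an unadjusted p under 0.05), with r from 0.01 to 0.14, and 0% of all probe sets over the 4 regions. With RIN as a covariate the same 14 pairs were called, and the r of Shox2 and Synpo2 was 0.69. With the first 5 principal components as covariates 12 of the 14 were called, and the 2 that were not were those of Irx2, with Shox2 (r = -0.31, adjusted p = 0.101) and with Synpo2 (r = -0.26, adjusted p = 0.255).

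**Figure D3:**
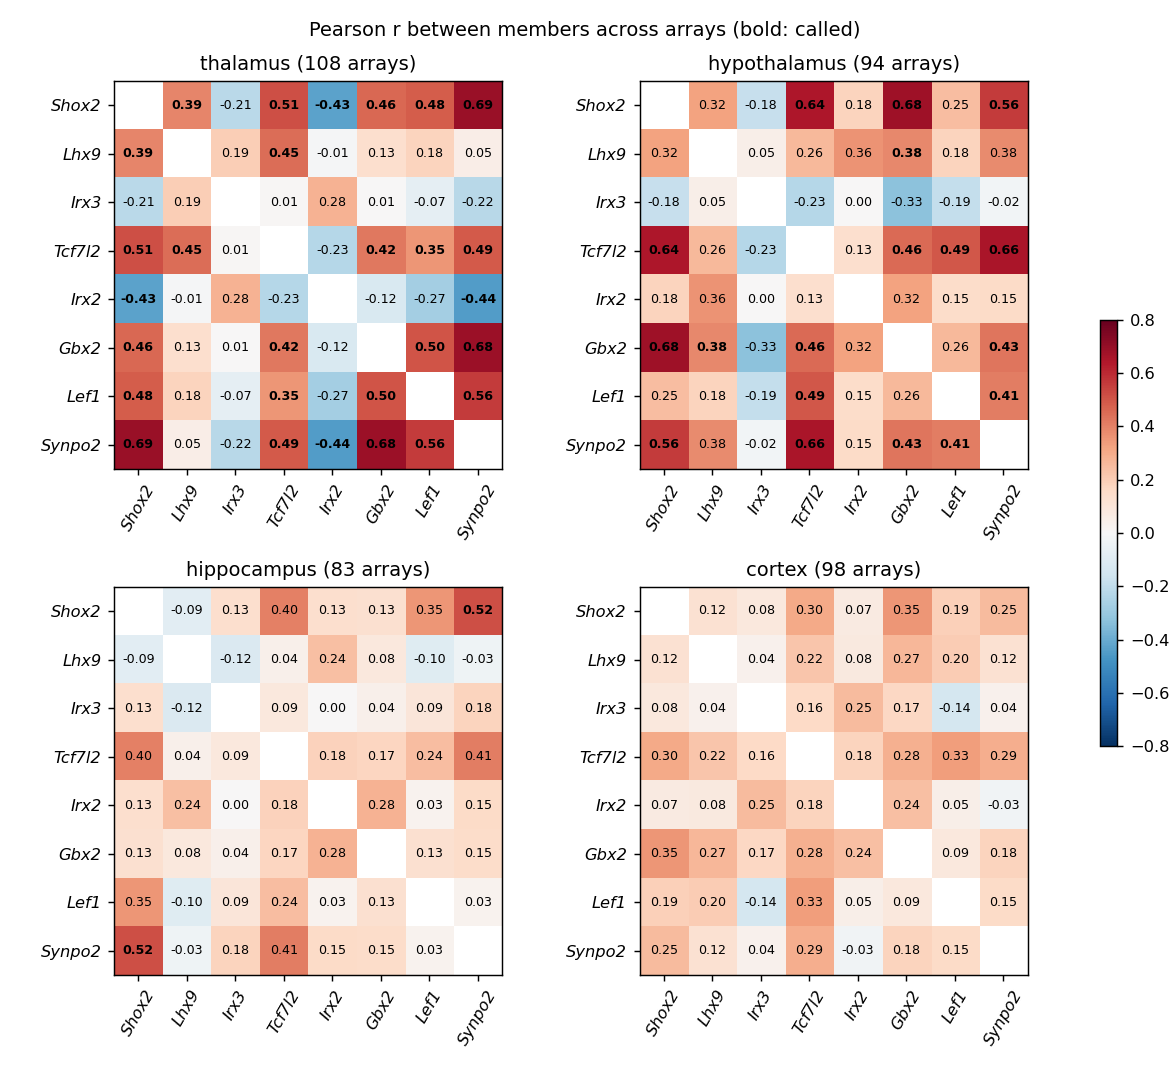
Pearson r of each pair of members across the arrays of a region, red for positive and blue for negative, with called pairs in bold. In thalamus 14 of 28 pairs are called, in hypothalamus 9, in hippocampus 1 and in cortex 0; Irx2 is negative with Shox2 and Synpo2 in thalamus only among the called pairs.

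The genes nearest to each member across thalamus arrays were taken by Pearson r to its main probe set, 5 for each member. These 40 places held 35 genes, of which 5 were on the list of other thalamus markers and 1 was a member. All 40 had r from 0.49 to 0.91 with rho from 0.43 to 0.89 and limma adjusted p of at most 0.000444. They were chosen for their r on these arrays, so these values describe them and are no test.

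Synpo2 had the closest neighbours: Prkcd, which encodes protein kinase C delta, with r = 0.91, Ramp3 with 0.90, Ptpn3 and Plekhg1 with 0.88 each, and the GABA-A receptor delta subunit gene Gabrd with 0.87. Shox2 had Kcnc2, a gene of fast voltage-gated potassium channels, with r = 0.78, then Ptpn3 with 0.71, the neuropeptide gene Cck with 0.70, Synpo2, and Tafa4 with 0.69. Gbx2 had the kinase gene Prkch and the netrin-G1 gene Ntng1 with 0.76 each, Zdhhc22 and Stum with 0.74 each, and Ramp3 with 0.71. Lef1 shared Ntng1 (0.69) and Prkch (0.68) with Gbx2, followed by Gabra4, Ildr2 and Lrrn2 between 0.62 and 0.63. Ptpn3, Ramp3, Ntng1 and Prkch each stood near more than 1 of the 5 members that varied together.

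Tcf7l2 and Lhx9 shared Cbln2, a gene for a secreted synapse organizer, with r = 0.61 and 0.53. Tcf7l2 was further followed by Zfhx3, Rgs7, Hivep3 and Rims3 between 0.53 and 0.59. Lhx9 had the transcription factor gene Tfap2d on top with r = 0.60, which was 0.52 without the 2 farthest arrays, and then Tpbg, the forkhead gene Foxp2 and Nek7 between 0.49 and 0.51.

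The Iroquois genes had other neighbours. Irx2 was followed by Hoxb5, a homeobox gene known from hindbrain and spinal cord, with r = 0.73, by Slc6a5, the transporter gene of glycinergic neurons, with 0.72, and by Lamp5, Sh3bgr and Fcmr between 0.65 and 0.66. Irx3 had Cdk5r2 with r = 0.55, then Spryd3, Phlda3, Csrp1 and Scyl2 between 0.49 and 0.52. Lamp5, near Irx2, was the gene with the lowest r to Shox2 (-0.63) and to Tcf7l2 (-0.60). The lowest r to Irx2 was that of Camkv (-0.61), to Gbx2 and Synpo2 that of Caln1 (-0.58 and -0.67), to Lef1 Lgi2 (-0.52), to Irx3 Lingo1 (-0.51) and to Lhx9 Hopx (-0.47). Among 19 pretectum and midbrain markers, 3 were called with Irx2, all positive, against 2.69% of all probe sets, and the serotonin transporter gene Slc6a4 was highest with r = 0.45. Whether the amount of neighbouring tissue in a dissection moved Irx2 was not tested.

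Of 25 other thalamus markers, 17 were called positive with Shox2 (median r 0.45), where 2.69% of all probe sets were called. The counts were 19 positive for Gbx2 (2.3% of all probe sets) and 18 positive and 1 negative for Synpo2 (4.34%). For Lef1 they were 15 positive and 1 negative (1.67%), and for Tcf7l2 11 positive and 1 negative (2.13%). For Irx2 they were 1 positive and 10 negative (2.69%), and for Lhx9 1 positive (0.16%), which was Foxp2. The median r over all genes lay between -0.02 and 0.02 for each of the 7. The marker with the highest r was Kcnc2 for Shox2 and Tcf7l2, Ntng1 for Gbx2 and Lef1 and Prkcd for Synpo2, and Nefm, a neurofilament gene, was lowest for all 5, with r from -0.50 for Tcf7l2 to -0.29 for Shox2 and Gbx2. For Irx2 the ends were turned round, with Nefm highest (r = 0.40) and Kcnc2 lowest (r = -0.50).

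The mean of the 25 markers ran from 9.05 to 9.90 across thalamus arrays with a median of 9.47. It had r = 0.77 with Synpo2 (rho = 0.72), 0.65 with Shox2 (rho = 0.62), 0.60 with Gbx2 (rho = 0.59) and -0.39 with Irx2 (rho = -0.39), each with a permutation p of 3e-05 or less for r. The list of 25 markers was chosen with earlier results of these data known. It holds 5 of the 35 genes nearest to members, so its counts and p-values are a description and no test. Of 9 habenula markers, 6 were called with Gbx2, all positive, led by the tachykinin gene Tac2 with r = 0.60, and 4 of 9 with Synpo2, led by Gpr151 with r = 0.49. Of 15 prethalamic markers, 3 were called negative with Gbx2, and Gad1, which makes the enzyme of GABA synthesis, was lowest with r = -0.49. The part that the makeup of the dissection had in these relations was not tested.

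Of 40 Wnt and Tcf pathway genes, 4 were called positive and 1 negative with Tcf7l2, where 2.13% of all probe sets were called, with the pathway's feedback target Axin2 on top (r = 0.44) and Sfrp1 lowest (r = -0.32). With Gbx2 the counts were also 4 and 1 (2.3% of all probe sets), led by the beta-catenin gene Ctnnb1 (r = 0.47). With Synpo2 they were 6 and 2 (4.34% of all probe sets), from Wnt9b (r = 0.62) to Lgr5 (r = -0.35), and with Lef1 2 and 1 (1.67% of all probe sets), with Wnt9b on top (r = 0.48). The medians of r over the list were between 0.06 and 0.07 for these 4 members.

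**Figure D4:**
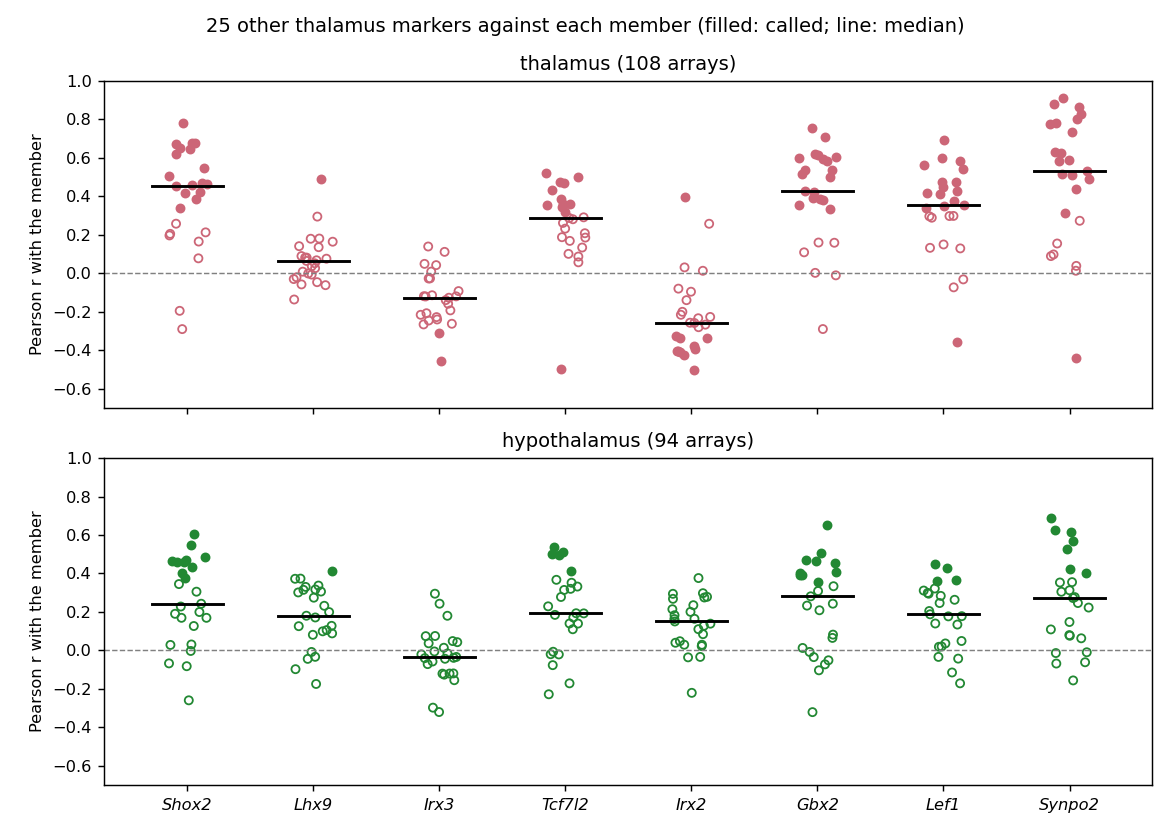
Pearson r of 25 other thalamus markers with each member across thalamus arrays (top) and hypothalamus arrays (bottom), 1 point per marker, filled where called, with the median as a black line. In thalamus the medians are 0.45 for Shox2, 0.43 for Gbx2 and 0.53 for Synpo2 and lie below 0 for Irx2 and Irx3; in hypothalamus fewer markers are called and Shox2 and Gbx2 have 10 each.

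In hypothalamus 9 of the 28 pairs were called, all with positive r, where 0.615% of all probe sets were called over the 8 fits. Shox2 and Gbx2 came first with r = 0.68 and rho = 0.65 (94 arrays, adjusted p = 3.49e-10), ahead of Tcf7l2 and Synpo2 with r = 0.66 and rho = 0.57 (91 arrays, adjusted p = 6.64e-09) and Shox2 and Tcf7l2 with r = 0.64 and rho = 0.59 (92 arrays, adjusted p = 1.55e-08). Shox2 and Synpo2 followed with r = 0.56. The others were Tcf7l2 with Lef1 (0.49) and with Gbx2 (0.46), Synpo2 with Gbx2 (0.43) and with Lef1 (0.41), and Lhx9 with Gbx2 (0.38). Of the 10 pairs among Shox2, Tcf7l2, Gbx2, Lef1 and Synpo2, 8 were thus called here too.

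Without the 2 farthest arrays the r of Shox2 and Gbx2 was 0.64, and the permutation p of the 9 pairs was at most 0.00013. The r of several pairs was lower or of opposite sign on the 2 smaller hybridization dates, which held 12 and 7 arrays. The difference between dates was not tested, nor whether it came from the few arrays or from the samples of those dates, and the pooled r takes in all 3. On the date with 75 hypothalamus arrays Shox2 and Gbx2 had r = 0.79, against 0.06 on the date with 12 and 0.50 on the date with 7. Shox2 and Synpo2 had r = 0.78 on the first and -0.25 and -0.12 on the others, and Gbx2 and Synpo2 had 0.59, -0.57 and 0.28. Shox2 and Tcf7l2 were positive on all 3, with 0.69, 0.30 and 0.76. Of the 9 pairs, 6 kept their sign on the date with 12 arrays and 7 on the date with 7. On the date with 75 arrays alone all 9 pairs were called. With second probe sets, 4 pairs were called, all among the 9: Shox2 with Tcf7l2, Gbx2 and Synpo2, and Tcf7l2 with Gbx2.

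In hypothalamus, of 25 other thalamus markers, 10 were called positive with each of Shox2 and Gbx2, where 0.855% of all probe sets were called with Shox2 and 1.36% with Gbx2. Ntng1 led for Shox2 (r = 0.60) and Kcnc2 for Gbx2 (r = 0.65). The prethalamus marker Pax6 had r = 0.62 with both, and 6 of 19 pretectum and midbrain markers were called positive with Shox2, led by the homeobox gene Otx2 with r = 0.59. Among 14 hypothalamus markers, 1 was called positive and 3 negative with Gbx2, with the homeobox gene Otp lowest (r = -0.48). The mean of the 25 thalamus markers ran from 8.85 to 9.64 across hypothalamus arrays in the deposited units, and had r = 0.59 with Shox2 (rho = 0.55), 0.56 with Gbx2 (rho = 0.48) and 0.70 with Synpo2 (rho = 0.52), each with a permutation p of 1e-05 for r. With the list chosen after earlier results of these data, these p-values too are a description and no test. The part of thalamic tissue in the hypothalamus samples was not tested.

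In hippocampus 1 pair was called, Shox2 with Synpo2 (r = 0.52, 81 arrays, adjusted p = 0.00373), where 0.667% of all probe sets were called over the 8 fits. It rested in part on few arrays: rho was 0.29, and r was 0.42 without the 2 farthest. On the date with 68 arrays r was 0.59 over the 66 with both values, and on the date with 12 it was 0.09. Of 25 other thalamus markers, 5 were called positive with Shox2, where 0.0355% of all probe sets were called. The slow troponin gene Tnnt1, which is also a thalamus marker, was highest with r = 0.70 and rho = 0.47, and 0.57 without the 2 farthest arrays. The mean of the 25 markers ran from 9.12 to 10.6 in the deposited units and had r = 0.62 with Shox2, 0.40 without the 2 farthest arrays, and rho = 0.30.

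Lhx9 in hippocampus varied with other genes. Of 10 hippocampus markers 6 were called positive and 1 negative with it, where 4.62% of all probe sets were called, with Nptx1 highest (r = 0.65) and Wfs1, a marker of the CA1 field, lowest (r = -0.44). The relation was not particular to hippocampus markers. The r of Lhx9 ran from -0.45 (Tac2) to 0.63 (Nhlh2) over the habenula list and from -0.44 (Cdh6) to 0.58 (Calb2) over other thalamus markers. Over the cortex list it ran from -0.48 (Mef2c) to 0.39 (Neurod6). The 4 probe sets of Lhx9 agreed in hippocampus, with r between 0.66 and 0.74, against -0.07 to 0.24 in cortex. Its values were below 0 in all 82 arrays, from -2.58 to -0.26, so its level there could not be read. Of 11 endothelial and mural markers, 3 were called positive with Lef1 and 8 were not called, where 0.269% of all probe sets were called. The called genes were Pecam1 (r = 0.45), Cldn5 (0.41) and Tek (0.41). Other endothelial genes of the list, Vwf, Flt1, Abcb1a and Slco1a4, were not called, and r was lowest for Dcn (0.10).

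**Figure D5:**
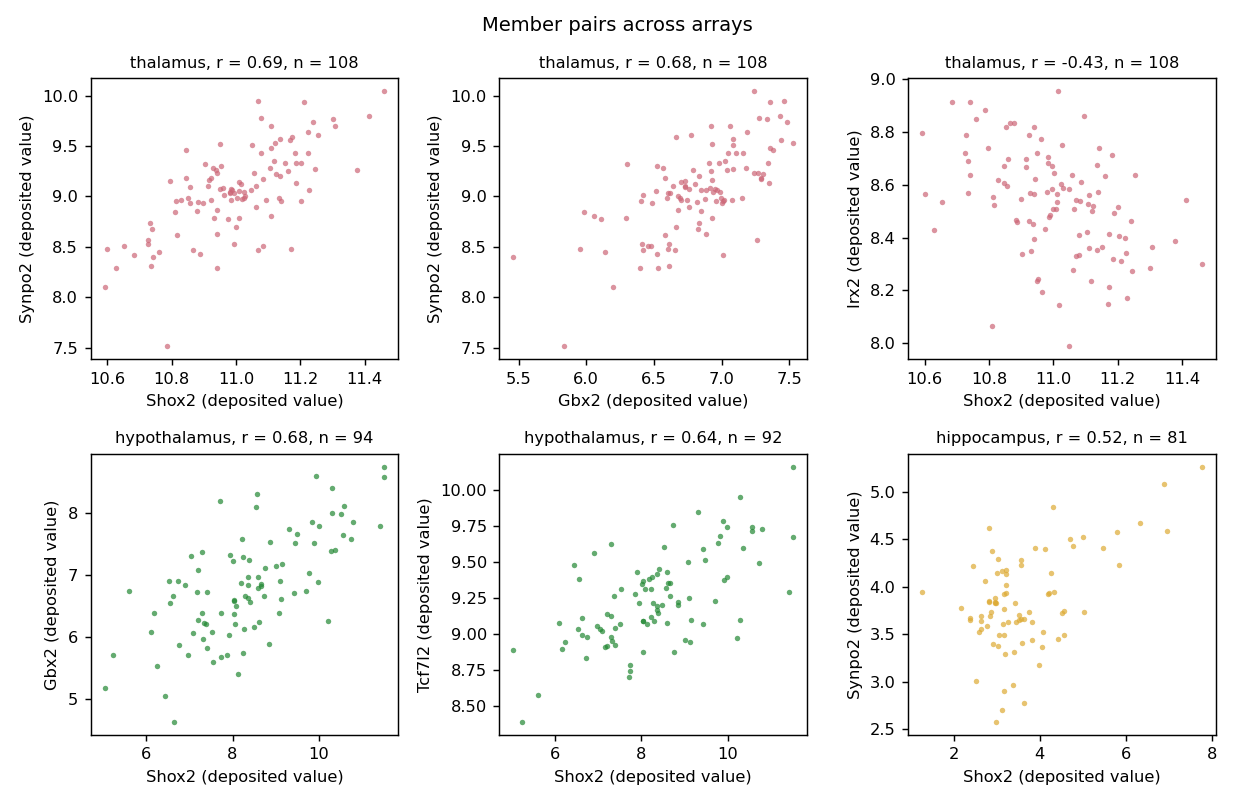
Deposited values of 6 pairs of members, 1 point per array, in thalamus (red), hypothalamus (green) and hippocampus (yellow). Synpo2 rises with Shox2 and Gbx2 and Irx2 falls with Shox2 in thalamus; in hypothalamus Gbx2 and Tcf7l2 rise with Shox2 over a range of 6.47 units, and in hippocampus few arrays hold the high end of Shox2 and Synpo2.

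In cortex limma called 0 of 28 pairs, with r from -0.14 to 0.35, where 1.49% of all probe sets were called over the 8 fits. By permutation without adjustment 11 pairs were under 0.05. The share of all probe sets under 0.05 without adjustment was not counted, so nothing is read from these 11. Synpo2 in cortex went with markers of other tissue by its main probe set: 7 of 7 striatum markers were called positive with it, from Drd1 (r = 0.45) to Ppp1r1b (r = 0.60), and 8 of 8 oligodendrocyte markers, from Mobp (r = 0.32) to Mog (r = 0.51), where 9.69% of all probe sets were called. On the largest date these r were 0.34, 0.56, 0.17 and 0.41. Over other thalamus markers r ran from -0.38 (Cacna1g) to 0.51 (Slc17a6). In cortex the main probe set had r = 0.43, 0.13 and -0.08 with the other Synpo2 probe sets. Of 8 cortex markers, 4 were called negative with Synpo2, and Slc17a7, the glutamate transporter gene of cortical neurons, was lowest (r = -0.46). By its main probe set, Shox2 in cortex was called positive with 3 of 14 hypothalamus markers (0.266% of all probe sets), with oxytocin, Oxt, on top (r = 0.49 and 0.39 without the 2 farthest arrays). That probe set had a median of 3.56 in cortex, where presence of the transcript could not be read. It had r = 0.21 with the other Shox2 probe set there. The part of striatum, white matter or other tissue in the cortex samples was not tested.

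A mouse with a high level in 1 region did not in general have a high level in another. Over 6 pairs of regions with 62 to 91 mice, r of the 8 members lay between -0.30 and 0.22 with a median of 0.01. Of 48 relations 1 was called, against 7.37% of all probe sets: Gbx2 between thalamus and hypothalamus, with r = -0.30 in 88 mice (permutation p = 0.00425, adjusted p = 0.0493), rho = -0.24 and r = -0.35 without the 2 farthest mice. It did not pass with rho (adjusted p = 0.198) or with 5 principal components removed (adjusted p = 0.147). By rho, Shox2 between thalamus and cortex passed in its place, with rho = 0.31 and adjusted p = 0.0343, where r was 0.22 (adjusted p = 0.221).

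The study recorded sleep in the same mice, and the thalamus takes part in the slow waves of sleep. For 5 sleep traits in 102 mice, limma called 0 of 40 relations of the members in thalamus, where 0.00133% of all probe sets were called, and 4 were under 0.05 without adjustment. The share of all probe sets under 0.05 without adjustment was not counted, so the 4 are listed only. Of these 4, 3 were with the delta power of non-REM sleep after deprivation: Synpo2 (r = 0.25, adjusted p = 0.447), Tcf7l2 (r = 0.19, adjusted p = 0.626) and Shox2 (r = 0.19, adjusted p = 0.637). The other was Shox2 with the baseline amount of REM sleep (r = -0.21, adjusted p = 0.789).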

How the data were processed

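RNA of each region was hybridized to Affymetrix arrays, 1 array per region and mouse. The deposited expression values are log2 values; per the submitters' processing notes the authors used RMA from affy. No version or genome build is named there. From the values, cohort and hybridization date appeared to be removed already. Missing values were between 0.197% and 0.224% of a region and were left missing. The deposited sleep traits are, per the labels, in other units, 1 scale for each trait; 9 trait columns of mice with no thalamus array were not used. Probe sets were named from the platform annotation: 34945 had 1 symbol, 932 several and 9160 none. Tests were limma 3.58.1 fits in R 4.3.3 over all probe sets, tested on simulated data, with Benjamini-Hochberg adjustment: cortex against thalamus, all probe sets on each member, on RIN and on 5 traits. Permutation tests were two-sided with 100000 draws, over 28 pairs of members per region. The same animal gave several regions per the labels, so regions pair by animal. Named genes were the members, the 5 nearest and the lowest gene by r in thalamus, the 4 called genes with the largest difference and the highest and lowest marker of a list; not all of these are printed. Members, lists and tests were chosen with earlier results of these data known. The number of arrays limits the precision. Promoters were RefSeq sequences of 250 bases before the start.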

Additional observations from a re-analysis of the deposited data

How the results depend on the processing

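The 8 members were called higher in thalamus under each of 8 alternatives: the animal as a replicate block, all regions in 1 fit, quantile normalization, the 1 hybridization date with both regions (14 cortex and 20 thalamus arrays), arrays with RIN of at least 7, the lower 0.333 of probe sets left out, no minimum difference, and the probe set with the highest mean over all arrays. Over all probe sets, 2480 were called, 2487 with the animal as a replicate block in 91 paired mice, and 38718 with no minimum difference. Quantile normalization moved the split from 1036 higher in cortex and 1444 higher in thalamus to 1397 and 947. Called pairs in thalamus numbered 12 to 14 of 28 under 6 other settings and 7 with second probe sets, and in hypothalamus 7 to 11 and 4. In hippocampus, 2 pairs were called on the largest date, 0 with second probe sets and 0 with low probe sets left out, where members themselves were removed by the filter. In cortex 0 were called under all 7. Between regions of a mouse, 0 relations were called with 5 principal components removed. Where a cause is not given, the cause was not tested. A low signal in cortex limits what a difference of Shox2 or Lhx9 can say about size.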
